A study of Mus musculus and Macaca nemestrina with 20 samples.

Results

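The expression of 35 genes of peripheral myelin and Schwann cells was followed in dorsal root ganglia (DRG), the clusters of sensory nerve cell bodies beside the spinal cord. The genes were taken by name for their known roles in the myelin sheath, its lipids, its junctions with the axon, its basal lamina and its inherited diseases. They were chosen with earlier results of these data known, so their shares of calls set beside all genes are a description and no independent test. All 35 were found among 29766 genes in the mouse tables, and 34 among 35194 genes in the monkey tables. GJC3 was not analysed in monkeys here. Bulk RNA sequencing covered 7 mouse libraries with the genotype label ADAM17 KO, called knockout-labelled below, and 7 titled as controls with the genotype label ADAM17 flox. ADAM17 is a membrane protease that sheds growth factors, cytokines and their receptors from the cell surface. Batch 1 of the labels held 4 knockout-labelled and 3 flox libraries, and batch 2 held 3 knockout-labelled and 4 flox libraries. In pig-tailed monkeys (Macaca nemestrina), 3 libraries came from DRG of the SADBE treatment (squaric acid dibutyl ester, a contact sensitiser of skin) and 3 from DRG of control skin with the treatment label Vehicle. The labels give no age, no sex, no driver or cell type of the deletion, and no exons deleted, and nothing says which libraries came from separate animals, so p-values measure the spread between these libraries.

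Schwann cells wrap large sensory and motor axons in myelin, a stack of membranes packed together by proteins such as myelin basic protein. The transcription factors Sox10 and Egr2 drive most genes of the sheath, and the membrane receptor Adgrg6 starts the programme through cAMP. ADAM17 is known in mice as an inhibitor of Schwann cell myelination, since it cleaves the axonal signal neuregulin 1 type III. Within DRG, myelinating Schwann cells lie along the axons that cross the ganglion, while satellite glia, which share several Schwann cell genes, surround the neuron cell bodies.

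Library totals were 12.1 to 14.7 M estimated counts (M, 1e+06) in knockout-labelled and 46.9 to 52.1 M in flox libraries of batch 1, and 27.9 to 30.8 M in knockout-labelled and 30.9 to 36.0 M in flox libraries of batch 2. Monkey totals were 9.02 to 22.4 M for SADBE and 13.7 to 27.1 M for vehicle. Counts of Y-linked genes were 155 and 181 CPM (counts per M) in knockout-labelled libraries 6 and 7. The other 12 mouse libraries had 4.30 to 12.0 CPM. Results of the fit over both batches are therefore also given without these 2 libraries. In batch 2 that would leave library 5 as the only knockout-labelled one. Batch 2 and the interaction were thus not fitted without both. The part of this Y-linked difference in the batch 2 results was not tested. Adam17 itself, summed over the whole gene, had a log2 fold change of 0.03 ± 0.18 (SE, adjusted p = 0.93) between knockout-labelled and flox libraries. Since the deleted exons are not given, that sum does not check the labels. Neuronal markers were abundant, with a summed level of 4139 to 6754 TPM (transcripts per M, a level scaled for transcript length) in knockout-labelled and 3060 to 5933 TPM in flox libraries. Of the 8 Schwann cell markers, Sox10, Mbp, Mag, Prx and Egr2 are members. The 8 summed to 1632 to 2693 TPM in knockout-labelled and 3333 to 4891 TPM in flox libraries. Mbp was most of that sum, at a mean of 1275 of 2067 TPM in knockout-labelled libraries of batch 1. In flox libraries of batch 2 Mbp was 3003 of 4006 TPM. In bulk tissue, fewer cells of a type and less RNA per cell cannot be told apart.

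In mice, 16 of the 35 genes fell in knockout-labelled DRG and 1, Mtmr2, rose, in edgeR's quasi-likelihood test with batch as a term and Benjamini-Hochberg adjusted p below 0.05, the test behind every adjusted p given here. Among all 15654 genes tested, 7.51% were called lower and 7.97% higher. The median log2 fold change of the 35 genes was -0.58, with 31 of them below 0 and a range of -1.90 to 0.86, against a median of -0.01 over all genes. Summed over the 35 genes, the level was 2884 to 3748 TPM in knockout-labelled and 4749 to 5378 TPM in flox libraries of batch 1, and 3530 to 4196 TPM in knockout-labelled and 5697 to 8161 TPM in flox libraries of batch 2, so the genotypes did not overlap in either batch. Mitochondrial genes took 0.734% to 1.03% of counts in knockout-labelled and 1.40% to 1.76% in flox libraries of batch 2, and 8.21% to 8.70% in knockout-labelled and 8.22% to 10.9% in flox libraries of batch 1. TMM factors were 0.823 to 0.855 in knockout-labelled and 0.931 to 0.974 in flox libraries of batch 2, and 1.04 to 1.14 in knockout-labelled and 1.11 to 1.19 in flox libraries of batch 1. Their part in the fall was not tested. Without knockout-labelled libraries 6 and 7, 13 genes fell and none rose at that threshold, where 1757 of all genes were called in either direction. In that fit Mtmr2 had a log2 fold change of 0.40 and an adjusted p of 0.0571.

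**Figure D1:**
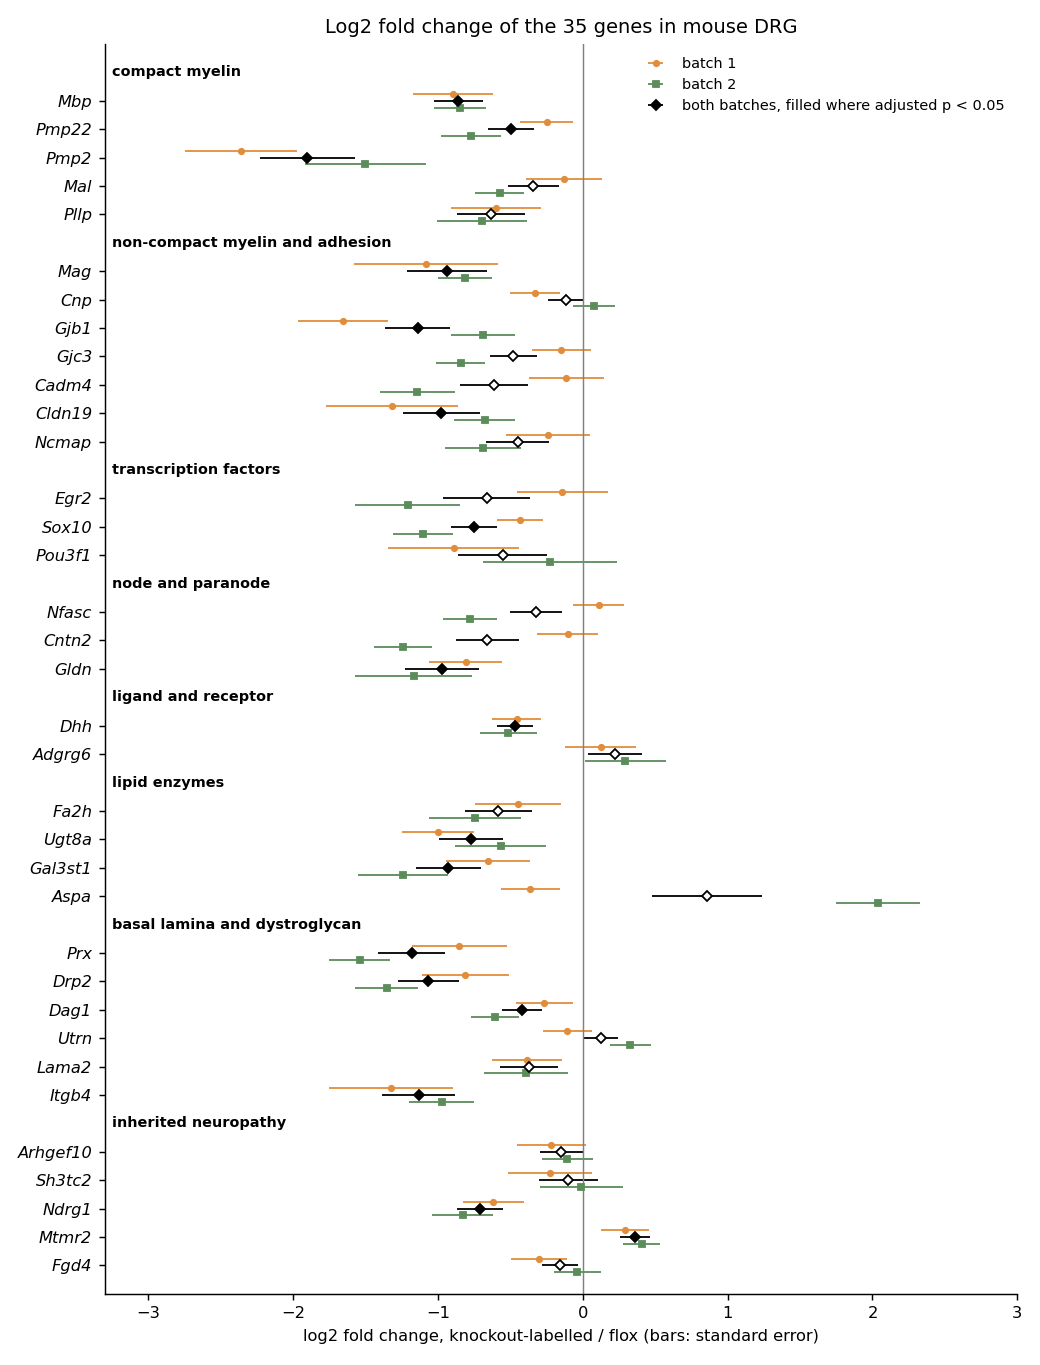
Log2 fold change (x axis, knockout-labelled over flox) of each of the 35 genes, grouped by role down the page, with bars of 1 standard error. Black diamonds are the fit over both batches, filled for the 17 genes with adjusted p below 0.05, orange circles are batch 1 and green squares batch 2. Most genes lie left of 0, while Aspa lies at -0.36 in batch 1 and 2.04 in batch 2.

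Tested alone, batch 1 called 2 of the 35 genes lower, Pmp2 and Gjb1, and none higher, where 0.687% of all 15140 genes tested were called lower and 1.12% higher. An unadjusted p under 0.05 was found for 13 of the 35 genes and for 16.4% of all genes in that batch. DESeq2 called 5 lower and none higher in that batch. The count of 2 rested on single libraries, since it was 9 without knockout-labelled library 4 and 0 without knockout-labelled library 1, 2 or 3 or flox library 2 or 3. Batch 2 called 16 lower and 1, Aspa, higher, against 5.99% and 7.22% of 15780 genes. The 16 became 8 without knockout-labelled library 6 or 7 and 7 without flox library 7. Calls over all genes were not counted for DESeq2 or for left-out libraries within a batch. Pmp2 was the 1 gene called lower in both, and with 1 library left out its call held in 2 of 7 fits of batch 1, those without knockout-labelled library 4 or flox library 1, and in 1 of 7 of batch 2, that without knockout-labelled library 5. The 2 batches gave a median log2 fold change of -0.39 in batch 1 and -0.70 in batch 2, against -0.004 and -0.02 over all genes. In both, 29 of the genes were below 0, a count not taken over all genes. Knockout-labelled libraries lay below every flox library in both batches for 5 genes, Mbp, Pmp2, Cldn19, Sox10 and Dhh, where 2.26% of all genes did so. No member lay above in both, where 3.24% of all genes did. The change in batch 2 differed from that in batch 1 for 1 gene, Aspa, in the test of the interaction, which called 1.03% of all genes.

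Of 5 proteins of compact myelin, Mbp, Pmp2 and Pmp22 fell and none rose. Mbp, the basic protein that holds the cytoplasmic faces of the sheath together, averaged 1275 ± 444 TPM (n = 4) in knockout-labelled and 2430 ± 129.8 TPM (n = 3) in flox libraries of batch 1, and 1527 ± 245 TPM (n = 3) in knockout-labelled and 3003 ± 552 TPM (n = 4) in flox libraries of batch 2 (SD). Per library, Mbp had 1067, 1260, 2211 and 2320 CPM in knockout-labelled DRG of batch 1, against 2956, 3386 and 3046 CPM in flox. In batch 2 knockout-labelled libraries had 2323, 2053 and 2847 CPM, against 4318, 3972, 5532 and 3557 CPM in flox. The lowest flox library thus exceeded the highest knockout-labelled library of its batch each time, and the log2 fold change was -0.86 ± 0.17 (SE, adjusted p = 0.0033). Pmp2 (chr3:10179851-10183929 in GENCODE M21 on GRCm38, as for the other genes located here), a fatty acid carrier of the sheath, had 8.92, 6.15, 5.48 and 15.6 CPM in knockout-labelled DRG of batch 1, against 32.1, 65.01 and 38.4 CPM in flox. Batch 2 gave 15.6, 66.9 and 67.6 CPM for knockout-labelled libraries and 148, 113, 168 and 139 CPM for flox. The groups were separate in both batches, although library 5 held far less Pmp2 than libraries 6 and 7, and both genotypes were higher in batch 2. Its fall was the largest of the 35, at -1.90 ± 0.33 (SE, adjusted p = 0.00161), or 3.74-fold lower, and it was -2.58 without libraries 6 and 7.

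Pmp22, the tetraspan protein whose duplication causes the most common Charcot-Marie-Tooth disease, had 1473, 1485, 1167 and 1836 CPM in knockout-labelled libraries of batch 1, against 1662, 2034 and 1505 CPM in flox. In batch 2 knockout-labelled libraries had 1237, 1646 and 2002 CPM, against 2238, 2317, 3564 and 3017 CPM in flox. The genotypes overlapped in batch 1 and were separate in batch 2, with a log2 fold change of -0.50 ± 0.16 (SE, adjusted p = 0.0473). That call did not hold without libraries 6 and 7, at -0.49 with an adjusted p of 0.144, and of 14 fits that each left out 1 library it held in 3, those without knockout-labelled library 4, flox library 1 or flox library 3, with adjusted p up to 0.115 in the others. Mal, a lipid raft protein of myelin, gave -0.34 ± 0.17 (SE, adjusted p = 0.198) over both batches and was called in batch 2 alone at -0.57 ± 0.17 (SE, adjusted p = 0.0495). None of the 7 fits of batch 2 that left out 1 library called Mal. Its values there were 85.4, 98.9 and 119 CPM in knockout-labelled libraries and 126, 133, 178 and 167 CPM in flox, without overlap. In batch 1 they were 113, 98.98, 130.5 and 199.9 CPM in knockout-labelled libraries and 187, 141 and 109.8 CPM in flox, with the highest value in knockout-labelled library 4. Pllp, another tetraspan protein of the sheath, gave -0.63 ± 0.24 (SE, adjusted p = 0.0793).

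**Figure D2:**
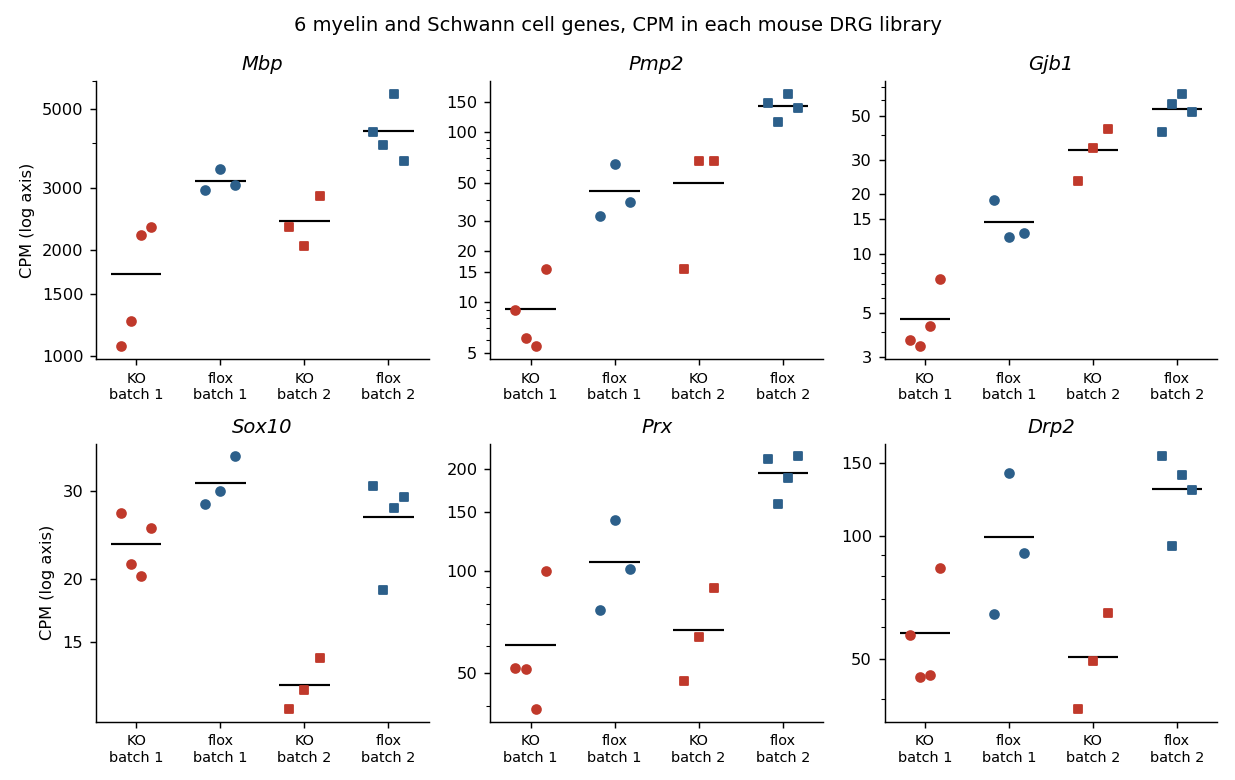
CPM on a log axis in each mouse library for Mbp, Pmp2, Gjb1, Sox10, Prx and Drp2, with knockout-labelled libraries (KO, red) left of flox (blue) in each batch, circles for batch 1, squares for batch 2 and a line at the mean. Mbp, Pmp2 and Sox10 do not overlap between genotypes in either batch, and Pmp2 and Gjb1 are higher in batch 2 than in batch 1 in both genotypes.

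Of 7 genes of non-compact myelin, adhesion and channels, 3 fell (Gjb1, Cldn19 and Mag) and none rose, and all 7 had log2 fold changes below 0. Gjb1 (chrX:101376378-101385629) encodes connexin 32, which joins the layers of the sheath with gap junctions and is mutated in X-linked Charcot-Marie-Tooth disease. It had 3.64, 3.40, 4.29 and 7.46 CPM in knockout-labelled libraries of batch 1, against 18.6, 12.2 and 12.7 CPM in flox, and 23.5, 34.3 and 42.9 CPM in those of batch 2, against 41.7, 57.7, 64.8 and 52.5 CPM in flox. The groups were separate in batch 1, and in batch 2 knockout-labelled library 7 exceeded the lowest flox library. The log2 fold change was -1.14 ± 0.22 (SE, adjusted p = 0.00309), at -1.66 ± 0.31 (SE, adjusted p = 0.0328) in batch 1 and -0.69 ± 0.22 (SE, adjusted p = 0.0647) in batch 2. With 1 library of batch 1 left out, the batch 1 call on Gjb1 held in 1 of 7 fits, that without knockout-labelled library 4. As Gjb1 is X-linked, the fit without libraries 6 and 7 bears on it, and it gave -1.49 with an adjusted p of 0.000808.

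Cldn19, a claudin of the tight junctions in the sheath, had 6.54, 3.09, 3.78 and 13.3 CPM in knockout-labelled libraries of batch 1, against 13.4, 20.04 and 15.02 CPM in flox. Batch 2 gave 19.1, 30.2 and 28.6 CPM in knockout-labelled libraries and 36.9, 33.9, 52.3 and 43.6 CPM in flox, so neither batch overlapped, although knockout-labelled library 4 came close to flox library 1. The log2 fold change was -0.98 ± 0.27 (SE, adjusted p = 0.0213), and the adjusted p reached 0.0521 without knockout-labelled library 5, the 1 library whose omission ended the call. Mag, a sialic acid-binding adhesion protein facing the axon, had 12.01, 10.3, 32.9 and 35.6 CPM in knockout-labelled libraries of batch 1, against 73.2, 29.1 and 39.4 CPM in flox, and 26.1, 23.5 and 24.2 CPM in those of batch 2, against 35.1, 42.3, 56.9 and 38.8 CPM in flox. Libraries 3 and 4 lay among the flox values of batch 1, and batch 2 was separate, at -0.94 ± 0.28 (SE, adjusted p = 0.0323) over both. Without libraries 6 and 7 together the call on Mag was lost, at -0.95 with an adjusted p of 0.0953. It was also lost without knockout-labelled library 5, 6 or 7 or flox library 1 or 6 singly, with adjusted p up to 0.0735.

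The other 4 genes of this role were not called over both batches. Gjc3, a connexin, and Cadm4, which binds axonal partners along the internode, were called lower in batch 2 alone. Gjc3 had 11.9, 15.7 and 14.01 CPM in knockout-labelled libraries of that batch and 24.4, 23.4, 25.2 and 26.9 CPM in flox, and 34.4, 19.6, 26.9 and 25.4 CPM in knockout-labelled libraries of batch 1 and 23.9, 32.9 and 29.4 CPM in flox. Cadm4 had 6.88, 9.82 and 9.09 CPM in knockout-labelled libraries of batch 2 and 19.7, 13.7, 16.5 and 26.3 CPM in flox, and 14.01, 11.7, 8.45 and 18.5 CPM in knockout-labelled libraries of batch 1 and 13.3, 15.7 and 12.8 CPM in flox. With 1 library of batch 2 left out, the call on Gjc3 held in 7 of 7 fits and that on Cadm4 in 5, the exceptions being those without knockout-labelled library 7 or flox library 7. Both genes were thus separate in batch 2 and mixed in batch 1, with log2 fold changes over both batches of -0.48 ± 0.16 (SE, adjusted p = 0.055) for Gjc3 and -0.61 ± 0.23 (SE, adjusted p = 0.0865) for Cadm4. Cnp, an enzyme of the cytoplasmic channels of the sheath, gave -0.11 ± 0.12 (SE, adjusted p = 0.57), the value nearest to 0 among these 7. Ncmap, a membrane protein of non-compact myelin, gave -0.45 ± 0.22 (SE, adjusted p = 0.171).

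Among the transcription factors, Sox10 fell and Egr2 and Pou3f1 did not pass the test. Sox10 (chr15:79154908-79165240), needed for the Schwann cell lineage at every stage, had 27.1, 21.5, 20.3 and 25.2 CPM in knockout-labelled libraries of batch 1, against 28.2, 29.97 and 35.1 CPM in flox. In batch 2 knockout-labelled libraries had 11.04, 12.1 and 13.9 CPM, against 30.6, 19.04, 27.7 and 29.1 CPM in flox. The genotypes were separate in both batches, by a narrow margin in batch 1, and the log2 fold change was -0.75 ± 0.16 (SE, adjusted p = 0.00506). Egr2, the zinc finger factor that switches on the myelin genes, had 14.01, 11.3, 10.03 and 22.5 CPM in knockout-labelled libraries of batch 1, against 15.7, 20.2 and 10.8 CPM in flox. Its batch 2 values were 7.08, 20.2 and 15.97 CPM in knockout-labelled libraries and 24.3, 23.3, 43.98 and 42.03 CPM in flox, separate where batch 1 was mixed. Over both batches Egr2 gave -0.66 ± 0.30 (SE, adjusted p = 0.144), and in batch 2 -1.21 ± 0.36 (SE, adjusted p = 0.0531). Pou3f1, the factor of promyelinating cells, was the lowest of the 35 in TPM and had 0.977 to 4.21 CPM in knockout-labelled and 1.26 to 6.32 CPM in flox libraries. It gave -0.55 ± 0.31 (SE, adjusted p = 0.237).

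At the node of Ranvier, Gldn fell, and Nfasc and Cntn2 were called in batch 2 alone. Gldn encodes gliomedin, which Schwann cell microvilli release to gather sodium channels. It had 9.11, 7.76, 6.54 and 13.2 CPM in knockout-labelled libraries of batch 1, against 14.5, 17.7 and 14.7 CPM in flox, and 2.99, 8.18 and 5.82 CPM in those of batch 2, against 6.89, 13.1, 11.6 and 19.4 CPM in flox. Flox library 4 lay within the knockout-labelled values of batch 2, while batch 1 was separate, and the log2 fold change was -0.97 ± 0.26 (SE, adjusted p = 0.018). Cntn2, a contactin of the juxtaparanode made by neurons and glia, had 30.1, 21.1 and 18.9 CPM in knockout-labelled libraries of batch 2, against 52.8, 60.8, 44.9 and 63 CPM in flox. Batch 1 gave 54.3, 58.9, 39.8 and 37.6 CPM in knockout-labelled libraries and 63.8, 39.2 and 47.6 CPM in flox, fully mixed. Its log2 fold change was -0.10 ± 0.21 (SE, adjusted p = 0.85) in batch 1 and -1.24 ± 0.20 (SE, adjusted p = 0.00427) in batch 2, and that difference had an adjusted p of 0.079. Nfasc, whose glial form sits at the paranode and whose neuronal form sits at the node, had 19.9, 20.4 and 21.2 CPM in knockout-labelled and 36.3, 43.7, 25.8 and 35.2 CPM in flox libraries of batch 2. In batch 1 the values were 42.1, 46.9, 38.8 and 43.4 CPM in knockout-labelled libraries and 51.3, 32.1 and 33.5 CPM in flox, and the difference between the batches had an adjusted p of 0.106. With 1 library of batch 2 left out, the call on Cntn2 held in 7 of 7 fits and that on Nfasc in 2, those without knockout-labelled library 5 or flox library 6. The log2 fold change over both batches was -0.66 for Cntn2 and -0.32 for Nfasc. Without knockout-labelled libraries 6 and 7 it was -0.31 for Cntn2 and -0.14 for Nfasc. The 2 forms of Nfasc are not separated by gene-level counts.

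Dhh, the hedgehog ligand by which Schwann cells organise the perineurium, fell, and the receptor Adgrg6 did not pass the test. Dhh had 21.8, 21.4, 18.6 and 28.6 CPM in knockout-labelled libraries of batch 1, against 29.1, 29.7 and 32.2 CPM in flox, and 10.3, 12.3 and 12.4 CPM in those of batch 2, against 14.6, 14.3, 19.3 and 18.4 CPM in flox. The groups were separate in both batches, and the log2 fold change of -0.47 ± 0.12 (SE, adjusted p = 0.0177) was nearly the same in each, at -0.46 in batch 1 and -0.51 in batch 2. Exons of Dhh overlap exons of Rhebl1 and of a predicted gene. Adgrg6 had 9.24 to 17.1 CPM in knockout-labelled and 10.8 to 14.2 CPM in flox libraries of batch 1, and gave 0.22 ± 0.19 (SE, adjusted p = 0.447), with overlap in both batches.

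Galactolipids make up much of the myelin membrane, and the enzymes of their last steps, Ugt8a and Gal3st1, both fell. Ugt8a, which makes galactosylceramide, had 40.02, 41.9, 39.6 and 72.8 CPM in knockout-labelled libraries of batch 1, against 91.8, 118 and 75.96 CPM in flox. In batch 2 knockout-labelled libraries had 31.9, 64.1 and 69.3 CPM, against 53.5, 71.7, 125 and 76.6 CPM in flox. Batch 1 was separate and batch 2 was not, with -0.77 ± 0.22 (SE, adjusted p = 0.0274) over both, and adjusted p up to 0.0679 without knockout-labelled library 1, 2, 3 or 5 or flox library 2 or 6. Gal3st1, which adds the sulphate that turns galactosylceramide into sulphatide, had 6.78, 7.24, 10.1 and 15.6 CPM in knockout-labelled libraries of batch 1, against 16.7, 14.2 and 14.98 CPM in flox. Batch 2 gave 2.43, 2.21 and 4.37 CPM in knockout-labelled libraries and 7.93, 6.30, 6.71 and 7.53 CPM in flox. Knockout-labelled library 4 overlapped the flox values of batch 1, batch 2 was separate, and the log2 fold change was -0.93 ± 0.23 (SE, adjusted p = 0.0123). Fa2h, which hydroxylates the fatty acids of these lipids, was below 0 in both batches, at -0.45 ± 0.30 (SE, adjusted p = 0.493) in batch 1 and -0.75 ± 0.32 (SE, adjusted p = 0.15) in batch 2, and did not pass over both, at -0.58 ± 0.23 (SE, adjusted p = 0.102).

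Aspa (chr11:73304992-73329596), the enzyme that cleaves N-acetylaspartate into acetate for lipid synthesis, was the exception of this role. In batch 2 it had 111, 224 and 279 CPM in knockout-labelled libraries, against 50.5, 34.8, 62.8 and 51.1 CPM in flox. In batch 1 knockout-labelled libraries had 55.6, 65.9, 50.4 and 70.6 CPM, against 57.7, 97.2 and 73.2 CPM in flox. Every knockout-labelled library thus exceeded every flox library in batch 2, whereas the genotypes overlapped in batch 1. The log2 fold change was 2.04 ± 0.29 (SE, adjusted p = 0.00225) in batch 2 and -0.36 ± 0.20 (SE, adjusted p = 0.418) in batch 1, a difference in the fit of both batches of 2.36 ± 0.38 (SE, adjusted p = 0.00889). That difference was called in each of 14 fits that left out 1 library, with adjusted p of 0.000258 to 0.0336. Over both batches Aspa gave 0.86 ± 0.38 (SE, adjusted p = 0.14), and 0.20 without libraries 6 and 7. In batch 2, library 5 was the lowest of the 3 knockout-labelled libraries for Aspa. Among the satellite glia markers, Fabp7 had a like pattern. It gave 1.92 ± 0.36 (SE, adjusted p = 0.009) in batch 2 and -0.49 ± 0.35 (SE, adjusted p = 0.527) in batch 1. That difference had an adjusted p of 0.0672 in the test of the interaction. Fabp7 was the exception of its list, since the difference between batches was above 0 for 1 of the 5 satellite glia markers and below 0 for 4. The 3 adipocyte markers tested were also below 0 in batch 1 (median -1.75) and above 0 in batch 2 (median 0.79). The part of Fabp7 or of the adipocyte markers in the Aspa result was not tested.

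**Figure D3:**
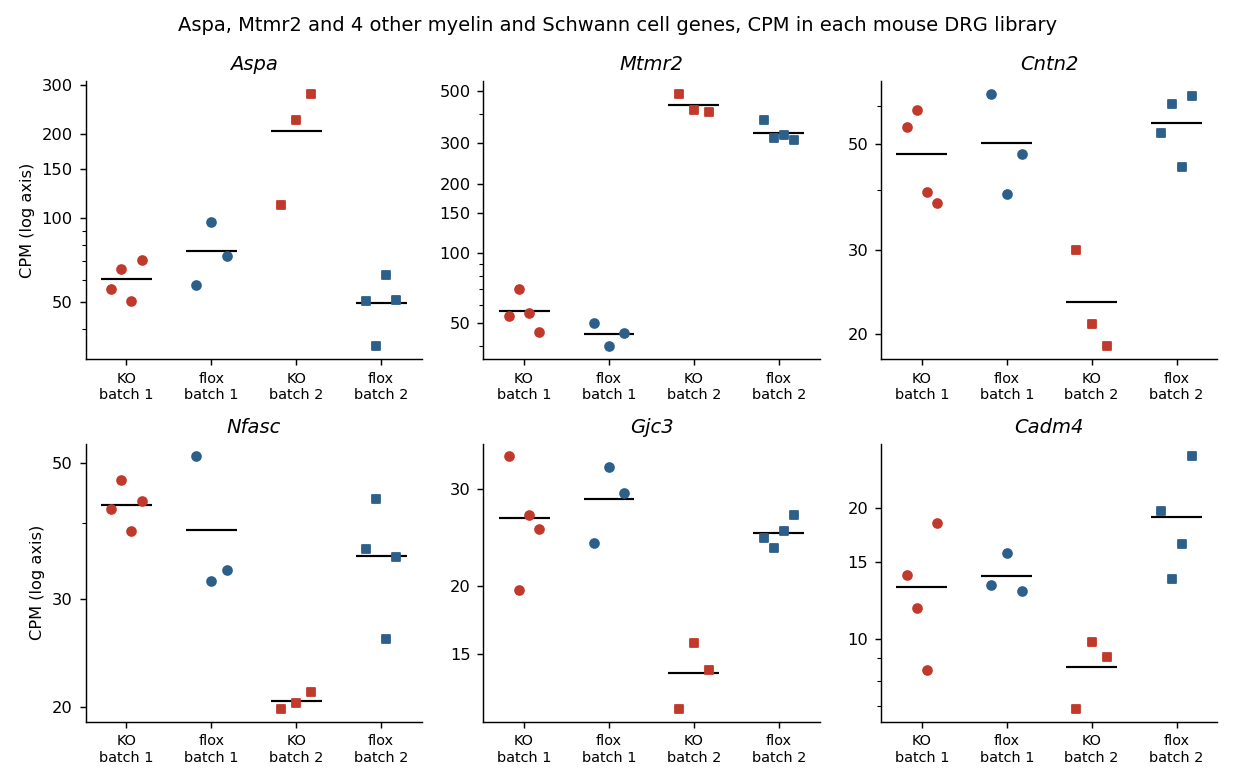
CPM on a log axis in each mouse library for Aspa, Mtmr2, Cntn2, Nfasc, Gjc3 and Cadm4, with knockout-labelled libraries (KO, red) left of flox (blue) in each batch and a line at the mean. In batch 2 Aspa and Mtmr2 are above flox and the other 4 below it without overlap, while in batch 1 all 6 overlap, and Mtmr2 is several times higher in batch 2 in both genotypes.

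Of 6 genes that link the sheath to its basal lamina, Prx, Drp2, Itgb4 and Dag1 fell and none rose. Prx (chr7:27499324-27520214) encodes periaxin, which with Drp2 and dystroglycan (Dag1) forms the patches between the sheath and its outer membrane. It had 51.8, 51.4, 39.1 and 100.3 CPM in knockout-labelled libraries of batch 1, against 76.6, 142 and 102 CPM in flox, and 47.5, 63.8 and 89.4 CPM in those of batch 2, against 216, 158, 188 and 219 CPM in flox. Drp2 (chrX:134404551-134456573) had 57.3, 45.2, 45.7 and 83.4 CPM in knockout-labelled libraries of batch 1, against 64.4, 142 and 90.9 CPM in flox, and 37.8, 49.6 and 64.8 CPM in those of batch 2, against 156, 94.4, 141 and 129 CPM in flox. Both genes showed the same picture, separate in batch 2 and overlapping in batch 1 through knockout-labelled library 4 and flox library 1. Prx had a log2 fold change of -1.18 ± 0.23 (SE, adjusted p = 0.00317). Drp2 had -1.07 ± 0.21 (SE, adjusted p = 0.0034). Both calls held in all 14 fits that left out 1 library and without libraries 6 and 7, at -1.16 (adjusted p = 0.0215) for Prx and -1.06 (adjusted p = 0.0212) for the X-linked Drp2.

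Dag1 had 94.9, 73.3, 78.4 and 108 CPM in knockout-labelled libraries of batch 1, against 83.8, 128 and 101 CPM in flox, and 56.5, 62.3 and 64.7 CPM in those of batch 2, against 72.03, 86.1, 109.8 and 105 CPM in flox. It was separate in batch 2 only, at -0.42 ± 0.14 (SE, adjusted p = 0.0484) over both, and lost the call without libraries 6 and 7, at -0.38 (adjusted p = 0.179). Of 14 fits that each left out 1 library, 3 kept the call on Dag1, those without knockout-labelled library 4, flox library 1 or flox library 4, with adjusted p up to 0.119 in the others. Itgb4, the laminin-binding integrin of the outer Schwann cell membrane, had 26.5, 28.3, 33.9 and 57.9 CPM in knockout-labelled libraries of batch 1, against 37.8, 130.5 and 99.7 CPM in flox. Its batch 2 values were 48.4, 73.2 and 47.2 CPM in knockout-labelled libraries and 93.5, 82.8, 134 and 134 CPM in flox. They were separate in batch 2, and flox library 1 lay among the knockout-labelled values of batch 1. The log2 fold change was -1.13 ± 0.25 (SE, adjusted p = 0.00781), but Itgb4 is also a perineurial marker. Utrn, the dystrophin relative that binds dystroglycan, gave 0.12 ± 0.12 (SE, adjusted p = 0.504), and Lama2, the laminin chain of the endoneurial basal lamina, gave -0.37 ± 0.20 (SE, adjusted p = 0.217).

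Of the remaining 5 genes, grouped by their inherited neuropathies, Ndrg1 fell and Mtmr2 rose. Ndrg1, a cytoplasmic protein of Schwann cells that is lost in a demyelinating Charcot-Marie-Tooth disease, had 245, 229.9, 215 and 351 CPM in knockout-labelled libraries of batch 1, against 329, 482 and 359.5 CPM in flox. In batch 2 knockout-labelled libraries had 144, 245 and 249 CPM, against 399, 291, 377 and 445 CPM in flox. Only library 4 overlapped the flox values, in batch 1, and the log2 fold change was -0.71 ± 0.16 (SE, adjusted p = 0.00777). Mtmr2 (chr9:13748410-13806481), a phosphoinositide phosphatase, had 53.9, 70.5, 55.5 and 45.9 CPM in knockout-labelled libraries of batch 1, against 50.3, 39.8 and 45.4 CPM in flox, and 488, 414 and 407 CPM in those of batch 2, against 377, 314, 325 and 307 CPM in flox. The step between batches exceeded that between genotypes, which overlapped in batch 1 and were separate in batch 2. Its log2 fold change was 0.36 ± 0.10 (SE, adjusted p = 0.0289), and the call held in 7 of 14 fits that left out 1 library. It was lost without knockout-labelled library 2 or 5 or flox library 2, 3, 5, 6 or 7, with adjusted p up to 0.0757. Arhgef10 gave -0.15 ± 0.15 (SE, adjusted p = 0.545), Sh3tc2 -0.10 ± 0.20 (SE, adjusted p = 0.773) and Fgd4 -0.16 ± 0.13 (SE, adjusted p = 0.428). Sh3tc2 works in endosomal recycling.

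Promoters are shown for the 3 members called lower with the lowest adjusted p that had an entry in the RefSeq promoter table (GRCm38.p6). Each window runs from 250 bases before to 50 after a transcript start, 5′ to 3′ on the gene's strand. Capitals mark matches on either strand to the core letters ACAAAG (bound by SOX factors), GTGGGNG (bound by EGR factors) and GGAATG (bound by TEAD factors). Of 4 windows of Gjb1, that with the most matches is chrX:101383482-101383781 on the plus strand, with 1 SOX and 2 EGR matches. Prx has 1 window, chr7:27499074-27499373 on the plus strand, with 1 EGR and 1 TEAD match. Of 3 windows of Gal3st1, chr11:3989683-3989982 on the plus strand is shown, with 1 EGR and 1 TEAD match.
Gjb1: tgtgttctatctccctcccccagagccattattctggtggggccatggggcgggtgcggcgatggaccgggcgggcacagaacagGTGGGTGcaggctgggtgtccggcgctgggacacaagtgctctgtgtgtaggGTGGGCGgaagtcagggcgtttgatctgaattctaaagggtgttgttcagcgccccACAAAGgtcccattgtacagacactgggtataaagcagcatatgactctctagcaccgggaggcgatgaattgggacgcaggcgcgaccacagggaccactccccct
Prx: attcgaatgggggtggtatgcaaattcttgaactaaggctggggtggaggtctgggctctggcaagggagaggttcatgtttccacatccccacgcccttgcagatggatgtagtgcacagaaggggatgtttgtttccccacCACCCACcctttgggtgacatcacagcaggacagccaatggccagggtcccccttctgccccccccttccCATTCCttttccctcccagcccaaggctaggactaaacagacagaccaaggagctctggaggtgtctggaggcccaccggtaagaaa
Gal3st1: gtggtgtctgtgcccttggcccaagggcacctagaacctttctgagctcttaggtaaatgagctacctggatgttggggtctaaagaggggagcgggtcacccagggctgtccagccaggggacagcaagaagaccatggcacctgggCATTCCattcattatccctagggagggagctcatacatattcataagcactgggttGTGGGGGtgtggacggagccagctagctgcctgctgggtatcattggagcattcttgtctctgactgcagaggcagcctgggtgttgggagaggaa

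The table held 47 windows for 25 of the 35 genes, some of them overlapping windows of 1 gene. The EGR letters were found in 51.1% of these windows and in 31.6% of all 32851 windows. The TEAD letters were in 25.5% of the member windows and 14.7% of all windows, and the SOX letters in 17% of the member windows and 18.7% of all windows. A match is a run of letters and not a binding site.

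Other genes of myelin and its partners gave a mixed picture. Of 12 other myelin and neuropathy genes tested, 4 fell and 1 rose. Sbf2, a partner of Mtmr2, gave -0.70 ± 0.16 (SE, adjusted p = 0.00812), and the calcium-binding S100b gave -0.35 ± 0.09 (SE, adjusted p = 0.0195). Cryab, a small heat shock protein, gave -0.72 ± 0.20 (SE, adjusted p = 0.0219) and Plekhb1 -0.55 ± 0.17 (SE, adjusted p = 0.0336). The gene that rose was Gdap1, a mitochondrial protein also made by neurons, at 0.77 ± 0.18 (SE, adjusted p = 0.0105). The median of the list was -0.20.

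Of 17 regulators of Schwann cells, 4 fell and 2 rose, with a median of -0.27. Id2 and Id4, which hold back differentiation factors, gave -1.05 ± 0.18 (SE, adjusted p = 0.00119) and -0.90 ± 0.17 (SE, adjusted p = 0.00246). Nab2, a partner of Egr2, gave -0.67 ± 0.19 (SE, adjusted p = 0.0278) and Nfatc4 -1.33 ± 0.44 (SE, adjusted p = 0.0497). Hdac2 at 0.38 ± 0.10 (SE, adjusted p = 0.019) and the kinase Gsk3b at 0.46 ± 0.13 (SE, adjusted p = 0.0291) rose. Of 10 genes of repair Schwann cells tested, 3 rose and 1 fell, with a median of 0.26. Jun, which drives the repair state but is also induced in injured neurons, rose by 1.24 ± 0.14 (SE, adjusted p = 2.79e-05). Bdnf, a neurotrophin, rose by 3.10 ± 0.15 (SE, adjusted p = 1.98e-09), and the growth cone protein Gap43 by 0.33 ± 0.10 (SE, adjusted p = 0.0427). Igfbp2 fell, at -1.997 ± 0.36 (SE, adjusted p = 0.00246). Shared with neurons, these genes do not mark Schwann cells alone. None of 6 genes of non-myelinating Schwann cells passed the edgeR test and none had an unadjusted p under 0.05, with a median of 0.22.

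On the axonal side, 3 of 14 partners of the node rose and none fell in the fit of both batches, with a median of 0.14. They were the contactin Cntn1 at 0.55 ± 0.15 (SE, adjusted p = 0.0206), the adhesion protein Nrcam at 0.70 ± 0.17 (SE, adjusted p = 0.0143) and Nrg1, the gene of the neuregulin that ADAM17 cleaves, at 0.70 ± 0.21 (SE, adjusted p = 0.0315). In batch 1, 13 of the 14 were above 0 (median 0.31) and none was called. In batch 2, 8 were below 0 and 6 above (median -0.13), with 2 called higher and 1 lower. The difference between batches was below 0 for 10 of the 14, and none was called in the test of the interaction. Of 15 partners of the basal lamina, 5 fell and 1 rose, with a median of -0.47. Nid1 (nidogen) gave -0.72 ± 0.15 (SE, adjusted p = 0.00474), agrin (Agrn) -0.80 ± 0.17 (SE, adjusted p = 0.00669), and the laminin chains Lamb2 -0.94 ± 0.23 (SE, adjusted p = 0.0116) and Lama4 -0.80 ± 0.19 (SE, adjusted p = 0.0118). Sgce, a sarcoglycan, gave -0.47 ± 0.13 (SE, adjusted p = 0.0243). Itgb1, the common beta integrin, rose by 0.36 ± 0.09 (SE, adjusted p = 0.0135). Of 14 other sphingolipid enzymes, 2 fell and 2 rose, with a median of 0.09. Cers2, which makes very long chain ceramides, gave -0.53 ± 0.13 (SE, adjusted p = 0.0131) and the elongase Elovl1 -0.57 ± 0.11 (SE, adjusted p = 0.00278). Sgms1, a sphingomyelin synthase, gave 0.58 ± 0.19 (SE, adjusted p = 0.0451) and Psap, the precursor of the saposins, 0.35 ± 0.10 (SE, adjusted p = 0.034).

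Markers of other cells moved together with the genotype. All 6 neutrophil markers rose, with log2 fold changes of 2.67 to 3.40, and S100a8, S100a9 and Retnlg gave 3.12 ± 0.37 (SE, adjusted p = 9.83e-05), 3.19 ± 0.38 (SE, adjusted p = 9.83e-05) and 2.89 ± 0.38 (SE, adjusted p = 0.00019). Their summed level was 5621 to 19430 TPM in knockout-labelled and 652.7 to 2362 TPM in flox libraries of batch 1, and 1289 to 2388 TPM in knockout-labelled and 116 to 250 TPM in flox libraries of batch 2. Of 6 fibroblast markers 5 fell, led by Col1a1 at -2.04 ± 0.26 (SE, adjusted p = 0.000145), Col1a2 at -1.60 ± 0.22 (SE, adjusted p = 0.00019) and Col3a1 at -1.58 ± 0.27 (SE, adjusted p = 0.00132). Fibroblast markers summed to 1007 to 2007 TPM in knockout-labelled and 2026 to 3825 TPM in flox libraries of batch 1, and 989.5 to 1900 TPM in knockout-labelled and 2689 to 3612 TPM in flox libraries of batch 2. Of 5 perineurial markers 4 fell, Lypd2 at -2.28 ± 0.38 (SE, adjusted p = 0.00149), Cldn1 at -1.09 ± 0.26 (SE, adjusted p = 0.0106), Ntn4 at -0.74 ± 0.17 (SE, adjusted p = 0.00866) and Itgb4 as above. They summed to 121 to 216 TPM in knockout-labelled and 260.1 to 592 TPM in flox libraries of batch 1, and 70.9 to 149 TPM in knockout-labelled and 252 to 400.3 TPM in flox libraries of batch 2. The part of these cells in the fall of the myelin genes was not tested.

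Satellite glia markers summed to 4008 to 5932 TPM in knockout-labelled and 4090 to 4529 TPM in flox libraries of batch 1, and 6071 to 7070 TPM in knockout-labelled and 4607 to 5077 TPM in flox libraries of batch 2. Of the 5, Cdh19 rose, at 0.70 ± 0.16 (SE, adjusted p = 0.00962), and none fell. Among the 6 sensory neuron markers Prph (0.45 ± 0.13 (SE, adjusted p = 0.025)) and Tubb3 (0.59 ± 0.09 (SE, adjusted p = 0.000514)) rose. Of 6 markers of large A-fibre neurons, whose axons are myelinated, Ntrk3 fell, at -0.60 ± 0.17 (SE, adjusted p = 0.0279). The 6 summed to 705 to 1010 TPM in knockout-labelled and 539.8 to 965 TPM in flox libraries. Of these 6, 5 were above 0 in batch 1 (median 0.33) and 5 below 0 in batch 2 (median -0.21). The difference between batches was below 0 for all 6, and none was called in the test of the interaction. Oligodendrocyte markers, which would come from central myelin, had a median log2 fold change of -0.63 over 6 tested, and none passed the edgeR test or had an unadjusted p under 0.05. The median was -1.24 in batch 1, with all 7 tested there below 0, and -0.09 in batch 2. At most 1 of the 7 was at 0 in a library. They summed to 94.9 to 344 TPM in knockout-labelled and 269 to 403 TPM in flox libraries of batch 1, where the groups overlapped, and 43.9 to 87.9 TPM in knockout-labelled and 41.4 to 120.2 TPM in flox libraries of batch 2. Mbp, Mag and Sox10 are also made by oligodendrocytes, and the part of those cells was not tested. Skeletal muscle markers ranged widely, over 9.25 to 2803 TPM in knockout-labelled and 33.3 to 3829 TPM in flox libraries. Adipocyte markers ran over 5.01 to 106 TPM in knockout-labelled and 26.7 to 273 TPM in flox libraries. None of either list was called in the edgeR fit of both batches or had an unadjusted p under 0.05 in it. That fit joined opposite directions. All 6 muscle markers were above 0 in batch 1 (median 0.47) and below 0 in batch 2 (median -3.04). The 3 adipocyte markers tested were below 0 in batch 1 (median -1.75) and above 0 in batch 2 (median 0.79). In the edgeR fit of batch 2, 1 marker of each list had an unadjusted p under 0.05, and none was called in either batch.

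**Figure D4:**
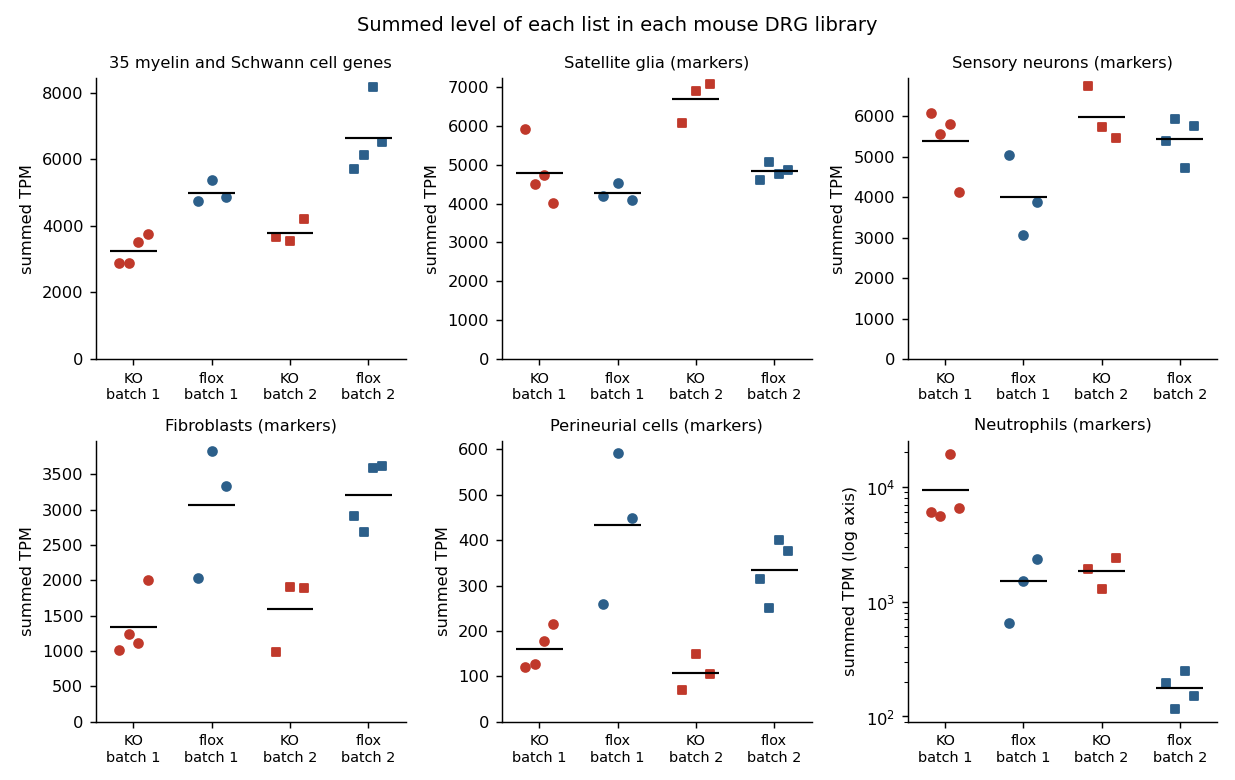
Summed TPM in each mouse library of the 35 genes and of the markers of 5 other cell types (neutrophils on a log axis, the others from 0), with knockout-labelled libraries (KO, red) left of flox (blue) in each batch and a line at the mean. The 35 genes, the fibroblast markers and the perineurial markers are lower in knockout-labelled libraries without overlap in both batches. The neutrophil markers are higher without overlap in both batches, and the satellite glia markers are higher without overlap in batch 2 alone.

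In monkeys, none of the 34 genes passed the edgeR test after SADBE, and 0% of all 17988 genes did. Of the 34, 2 had an unadjusted p under 0.05, and of all genes 550. DESeq2 called 27 of all genes and 0 of the 34. The median log2 fold change was -0.10, with 20 genes below 0 and 14 above, against -0.01 over all genes, and with 1 library left out it ran from -0.55 without SADBE library 1 to 0.10 without vehicle library 2. The summed level of the 34 genes was 4563 to 8746 TPM for SADBE and 3889 to 13860 TPM for vehicle, with overlap. SADBE and vehicle libraries did not overlap for 3 of the 34, DRP2, ASPA and LAMA2, all lower, where 9.2% of all genes did not overlap.

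DRP2 had 21.3, 7.86 and 6.30 CPM in SADBE libraries, against 24.9, 57.6 and 24.7 CPM in vehicle, with a log2 fold change of -1.59 ± 0.62 (SE, unadjusted p = 0.0305, adjusted p = 0.999). ADGRG6 had 6.11, 2.13 and 2.61 CPM in SADBE libraries, against 14.9, 10.04 and 5.16 CPM in vehicle, at -1.46 ± 0.63 (SE, unadjusted p = 0.0467, adjusted p = 0.999). ASPA had 1.56, 2.36 and 3.53 CPM in SADBE libraries, against 4.58, 6.49 and 4.81 CPM in vehicle, at -1.09 ± 0.56 (SE, unadjusted p = 0.0842, adjusted p = 0.999). DRP2 and ASPA were separate, with SADBE library 1 closest to vehicle for DRP2 and library 3 closest for ASPA, while SADBE library 1 exceeded a vehicle library for ADGRG6. SOX10 had 106, 33.7 and 42.98 CPM in SADBE libraries, against 46.98, 73.4 and 21.4 CPM in vehicle. EGR2 had 12.6, 33.8 and 18.1 CPM in SADBE libraries, against 5.76, 15.8 and 43.3 CPM in vehicle, and PRX 22.3, 9.998 and 4.94 CPM in SADBE libraries, against 9.72, 16.5 and 5.95 CPM in vehicle. All 3 were mixed between the groups, at 0.37 ± 0.61 (SE, unadjusted p = 0.562, adjusted p = 0.999) for SOX10, -0.01 ± 0.72 (SE, unadjusted p = 0.994, adjusted p = 0.999) for EGR2 and 0.21 ± 0.65 (SE, unadjusted p = 0.753, adjusted p = 0.999) for PRX.

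The spread between monkey libraries of 1 group was wide. CNP had 3465, 4421 and 3116 CPM in SADBE libraries, against 127, 1622 and 7358 CPM in vehicle, where the values ran farthest apart. PMP22, the highest of the 34 in level at 3303 TPM for SADBE and 5704 TPM for vehicle on average, had a 95% confidence interval of the log2 fold change of -2.30 to 0.87. That of MBP was -1.88 to 1.5 and that of PMP2 -0.77 to 1.70, so changes of the size seen for these genes in mice lie within the interval of MBP and outside that of PMP2. All 34 genes had an adjusted p of 0.999.

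**Figure D5:**
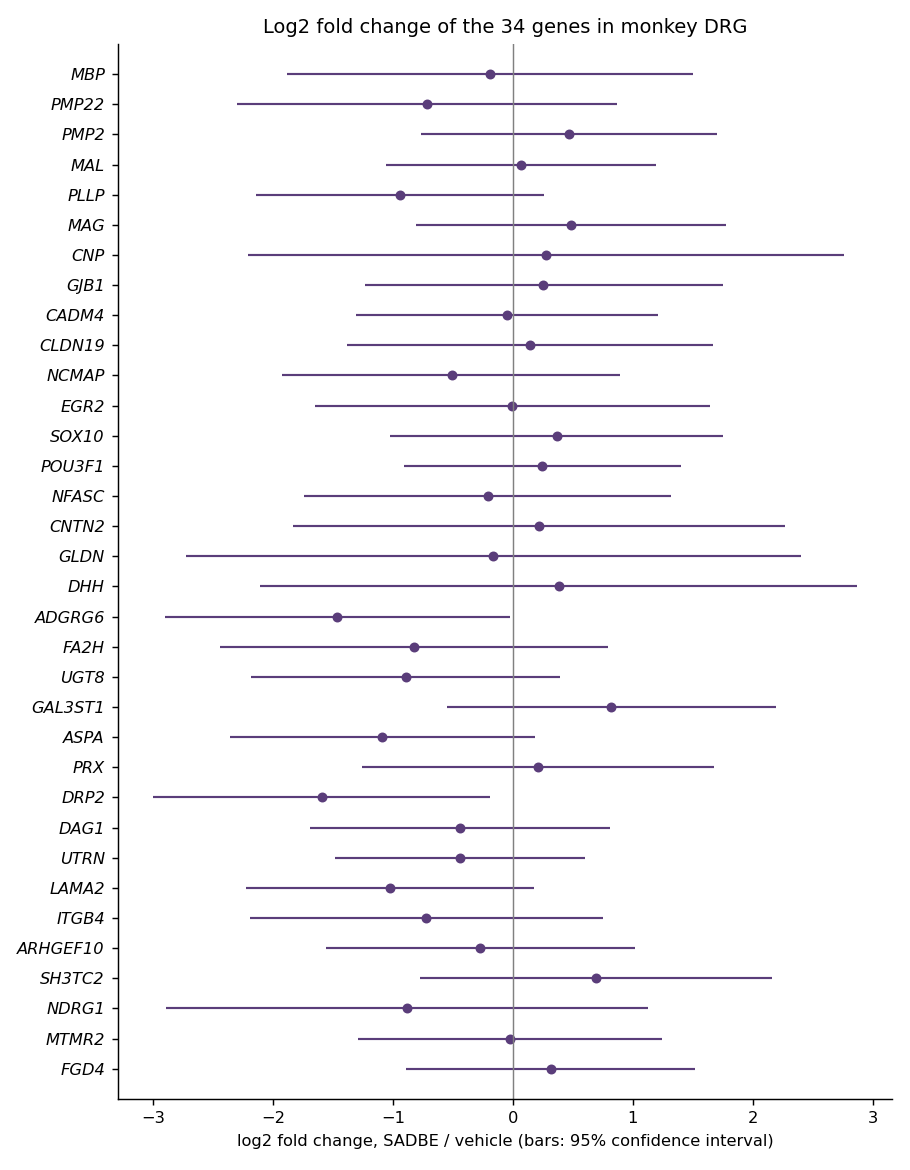
Log2 fold change (x axis, SADBE over vehicle) of each of the 34 genes in monkey DRG, with bars of the 95% confidence interval from the quasi-likelihood fit, 3 libraries a group. The bars of DRP2 and ADGRG6 end below 0 before adjustment over all genes, and the other 32 cross 0.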

How the data were processed

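Total RNA of fresh frozen ganglia was sequenced as bulk libraries, per the labels' protocols. The authors deposited estimated counts per gene and TPM per gene, made with kallisto and with the build GRCm38 named, per the submitters' processing notes. The kallisto version, the transcriptome used for monkeys and whether strand was kept are not given in the sources used here, so reads of overlapping genes cannot be told apart, and exons of 12 of the 35 genes overlap another gene. The mouse tables' row that names no gene (0.0785% to 0.186% of counts) was left out. Estimated counts were rounded and tested with edgeR 4.0.16 in R 4.3.3 (filterByExpr with a minimum count of 10 and a minimum total of 15, TMM, robust glmQLFit, glmQLFTest), with batch as a term in mice, within each batch and for the batch by genotype interaction. P-values were adjusted by Benjamini-Hochberg over all genes tested, with calls at 0.05. CPM use TMM-scaled library sizes, and TPM columns were rescaled to sum to 1e+06, because the deposited mouse sums differ. SE is the log2 fold change divided by the root of F.

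DESeq2 1.42.0, limma 3.58.1 on log2(TPM + 0.1) and log2(TPM + 1), other normalizations, no filter, no batch term, thinned counts and left-out libraries were the alternatives. On simulated data with planted log2 fold changes of size 1 or 2, the mouse fit recovered many but not all of them, and the monkey fit almost none. Smaller changes were not planted. A gene not called in monkeys is thus not shown to be unchanged. Replicate numbers were not used as pairs in the main fits, since the labels state no pairing. Correlations of same-numbered libraries ran from -0.13 to 0.147 in mice and from -0.312 to 0.233 in monkeys. Monkey libraries with unlike numbers ran from -0.447 to 0.429. With so few libraries a group, these values cannot decide whether libraries were paired. No 2 libraries of a group held identical counts. All 35 genes passed the filter in mice and 34 in monkeys, and all are named, by role. Values of every library are given for those called over both batches or in 1 batch, for the 3 lowest p-values in monkeys, and for Sox10, Egr2 and Prx. Of other lists, called genes are named, up to 5 a direction (3 for markers of other cells) by lowest p. One gene of the other myelin list is not reported here. The genes and lists were chosen with earlier results of these data known.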

Additional observations from a re-analysis of the deposited data

Results flagged for a closer look

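The difference between batches in Aspa was past the threshold of edgeR's quasi-likelihood test of the interaction, at 2.36 ± 0.38 (SE, adjusted p = 0.00889) on the log2 scale for batch 2 minus batch 1 of knockout-labelled over flox. In groups of 4 libraries, knockout-labelled library 4 stood apart from the other 3 of batch 1 for 3 genes. Pllp was at 44.5 CPM there, against 17.7 to 20 CPM in the others. Cnp was at 231.6 CPM, against 173 to 178 CPM, and Ugt8a at 72.8 CPM, against 39.6 to 41.9 CPM. Each is the gap to the nearest library over the whole range past Dixon's 95% critical value, which chance passes in about 1 of 20 groups, and 3 of 70 groups did so here.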

How the results depend on the processing

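The 16 lower calls in mice became 4 without a batch term, where 564 of all genes were called. They became 11 to 22 when 1 library was left out, 20 with DESeq2, 22 with limma at either pseudocount, 15 with RLE factors, 18 with upper-quartile factors and 15 with thinned flox counts. The 1 higher call (Mtmr2) became 0 without a filter, with limma at either pseudocount, without a batch term, without libraries 6 and 7 together, and 0 to 1 when 1 library was left out. Of all genes in mice, 2423 were called in the main fit, 3310 with DESeq2 and 2519 and 2551 with limma. RLE factors gave 2451, upper-quartile factors 2473 and thinned flox counts 2440. DESeq2 called 5 of the 35 genes lower in batch 1, and 21 lower and 2 higher in batch 2. In monkeys it called 27 of all genes. With 1 library left out, all calls in mice ran from 1587 (without knockout-labelled library 5) to 3108, lower calls from 0 to 9 in batch 1 and 7 to 12 in batch 2, and interaction calls from 1 to 3. The interaction calls were 2 without knockout-labelled library 5 (adding Cntn2) or flox library 1 (adding Nfasc), and 3 without flox library 6 (adding both). The replicate block gave 23 lower and 1 higher in mice, 2103 of all genes, and 0 calls in monkeys. In 1282 fits of single genes under alternatives, 1180 kept their side of the threshold, 64 lost and 38 gained a call, and 0 reversed. The 1282 include the monkey fits, where no member was called in the main fit or any alternative, so no call could be lost there. The 64 losses and 38 gains were all in mice. A reversal was counted only where the gene was called in the main fit or in the alternative.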
